A study of Arabidopsis thaliana with 58 samples.

Results

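The genes described here are 8 nuclear genes of Arabidopsis thaliana that encode cytosolic heat shock chaperones and regulators of the heat shock response: HSP101 (AT1G74310), HSP70-4 (AT3G12580), HSP70B (AT1G16030), HSP90.1 (AT5G52640), HSFA2 (AT2G26150), ROF2 (AT5G48570), MBF1C (AT3G24500) and HSA32 (AT4G21320). They were given as a list of loci and are 8 of the 23898 genes with a value in the series. The question was how each of them behaved in mature leaves, expanding leaves and roots when plants were deprived of magnesium (Mg), and whether the response differed between tissues and days.

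Wild-type plants of the ecotype Columbia-0 were grown hydroponically in MGRL solution at 22 °C under 16 h of light and 8 h of dark. From 10 days after germination, Mg-deficient plants received the solution with 0 mM Mg, in which MgSO4 was replaced by Na2SO4, and control plants received it with 1.5 mM Mg. Samples were taken on days 3, 5 and 8 of treatment, when plants were 13, 15 and 18 days old. Mature leaves are the first pair of rosette leaves and expanding leaves are the next pair. The 58 libraries were strand-specific. For mature leaves there were 3 Mg-deficient and 4 control libraries of day 3, 3 Mg-deficient and 5 control libraries of day 5, and 4 of each of day 8. For expanding leaves there were 4 Mg-deficient and 5 control libraries of day 3, 3 Mg-deficient and 5 control libraries of day 5, and 5 Mg-deficient and 4 control libraries of day 8. Roots of day 3 gave 3 Mg-deficient and 6 control libraries. Each library was made from tissue pooled from several plants, so that p-values measure the spread between these pooled samples.

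Chaperones bind proteins that are unfolded or misfolded. In the cytosol, HSP70 proteins bind exposed hydrophobic stretches and release them in cycles driven by ATP, HSP90 proteins act later on a narrower set of clients such as receptors and kinases, and HSP101 pulls single chains out of aggregates. In plants these genes are transcribed strongly during heat stress, when heat shock factors bind short repeats of the bases GAA and TTC near the start of transcription. HSFA2 is a heat shock factor that is itself made during stress and prolongs the response, MBF1C is a transcriptional coactivator that accumulates in heat, and ROF2 is a prolyl isomerase of the FKBP family known to modulate HSFA2. HSA32 is a heat-induced protein needed to keep acquired heat tolerance over time, together with HSP101. HSP70-4 and HSP70B are heat-inducible cytosolic HSP70 proteins, and HSP90.1 is the heat-inducible member of the cytosolic HSP90 family.

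The binding element itself was looked up in the reference genome, to show which of the 8 genes carry it as 3 alternating units. The motif GAANNTTCNNGAA, with N for any base, was searched on both strands of the 500 bases before the coding start of 27443 genes in TAIR10.1 (RefSeq). It was present in 3 of the 8 genes, against 1.2% of all 27443 windows. The matches are printed below with 8 bases on either side, 5′ to 3′ on the strand of the gene, with the motif in capitals.
HSP70-4: ttactcgtGAACGTTCTCGAAagctcttt
HSP90.1: aacgaaaaGAACTTTCTGGAAttcgtttg
HSFA2: ttagtaacGAAGTTTCTGGAAcattgtct
The HSP70-4 stretch is chr3:3993846-3993874 on the minus strand, 164 bases before the coding start and inside the annotated gene. The HSP90.1 stretch is chr5:21352254-21352282 on the plus strand, 282 bases before the coding start, and the HSFA2 stretch is chr2:11135528-11135556 on the plus strand, 307 bases before it. The shorter forms GAANNTTC or TTCNNGAA, which the longer motif contains, were found in 7 of the 8 genes (not in ROF2), against 33.9% of all windows. In the 250 bases before the annotated gene start, HSFA2 alone among the 8 matched the longer motif, against 0.386% of all windows. The window before the coding start was chosen after that result had been seen, because the annotated start of HSP90.1 coincides with its coding start. A match is a stretch of letters and not evidence of binding.

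The unit of the deposited values is a normalised signal, a read count adjusted to a common library size within each tissue and day. Reads recovered from it ranged from 545986 to 4014871 per library (median 1964031), and all 464 values of the 8 genes came out as whole reads within a tolerance of 0.001. Of the stretches of 50 bases in the exons of the 8 genes, as long as a read, none was found elsewhere in the genome for 7 genes and 0.196% for HSP101. A signal above 0 can belong to a library without a read for that gene, so reads are given where they are few. Libraries stood apart on day 8. In mature leaves, 12541 to 17029 genes had a read in Mg-deficient libraries, against 14557 in control replicate 1 and 6908 to 9697 in the other 3 controls. For expanding leaves of that day they were 18422 to 18718 in Mg-deficient and 12275 to 15172 in control libraries. Fewest genes were detected on day 5 of expanding leaves in Mg-deficient replicate 1 (12656, with 15948 and 16654 in its fellow Mg-deficient libraries and 17206 to 18285 in controls). Over all genes tested, log2 fold changes had a median of 0.91 for mature leaves of day 8, and of 0.63 for expanding leaves of day 8 and -0.34 for those of day 5. With libraries rescaled by the median of their ratios to a common profile, these medians became -0.80, 0.01 and -0.03, and the share of calls that were higher became 15.9% in place of 95.2%, 47.4% in place of 67.3% and 58.9% in place of 48.1%. The rescaling used genes with a signal above 0 in every library, and such a signal can stand for no read. It may therefore be distorted where few genes were detected, as in mature leaves of day 8, and this was not tested. Root marker genes summed to a signal of 1985 to 3020 in root libraries and to at most 29.7 in leaf libraries.

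**Figure D1:**
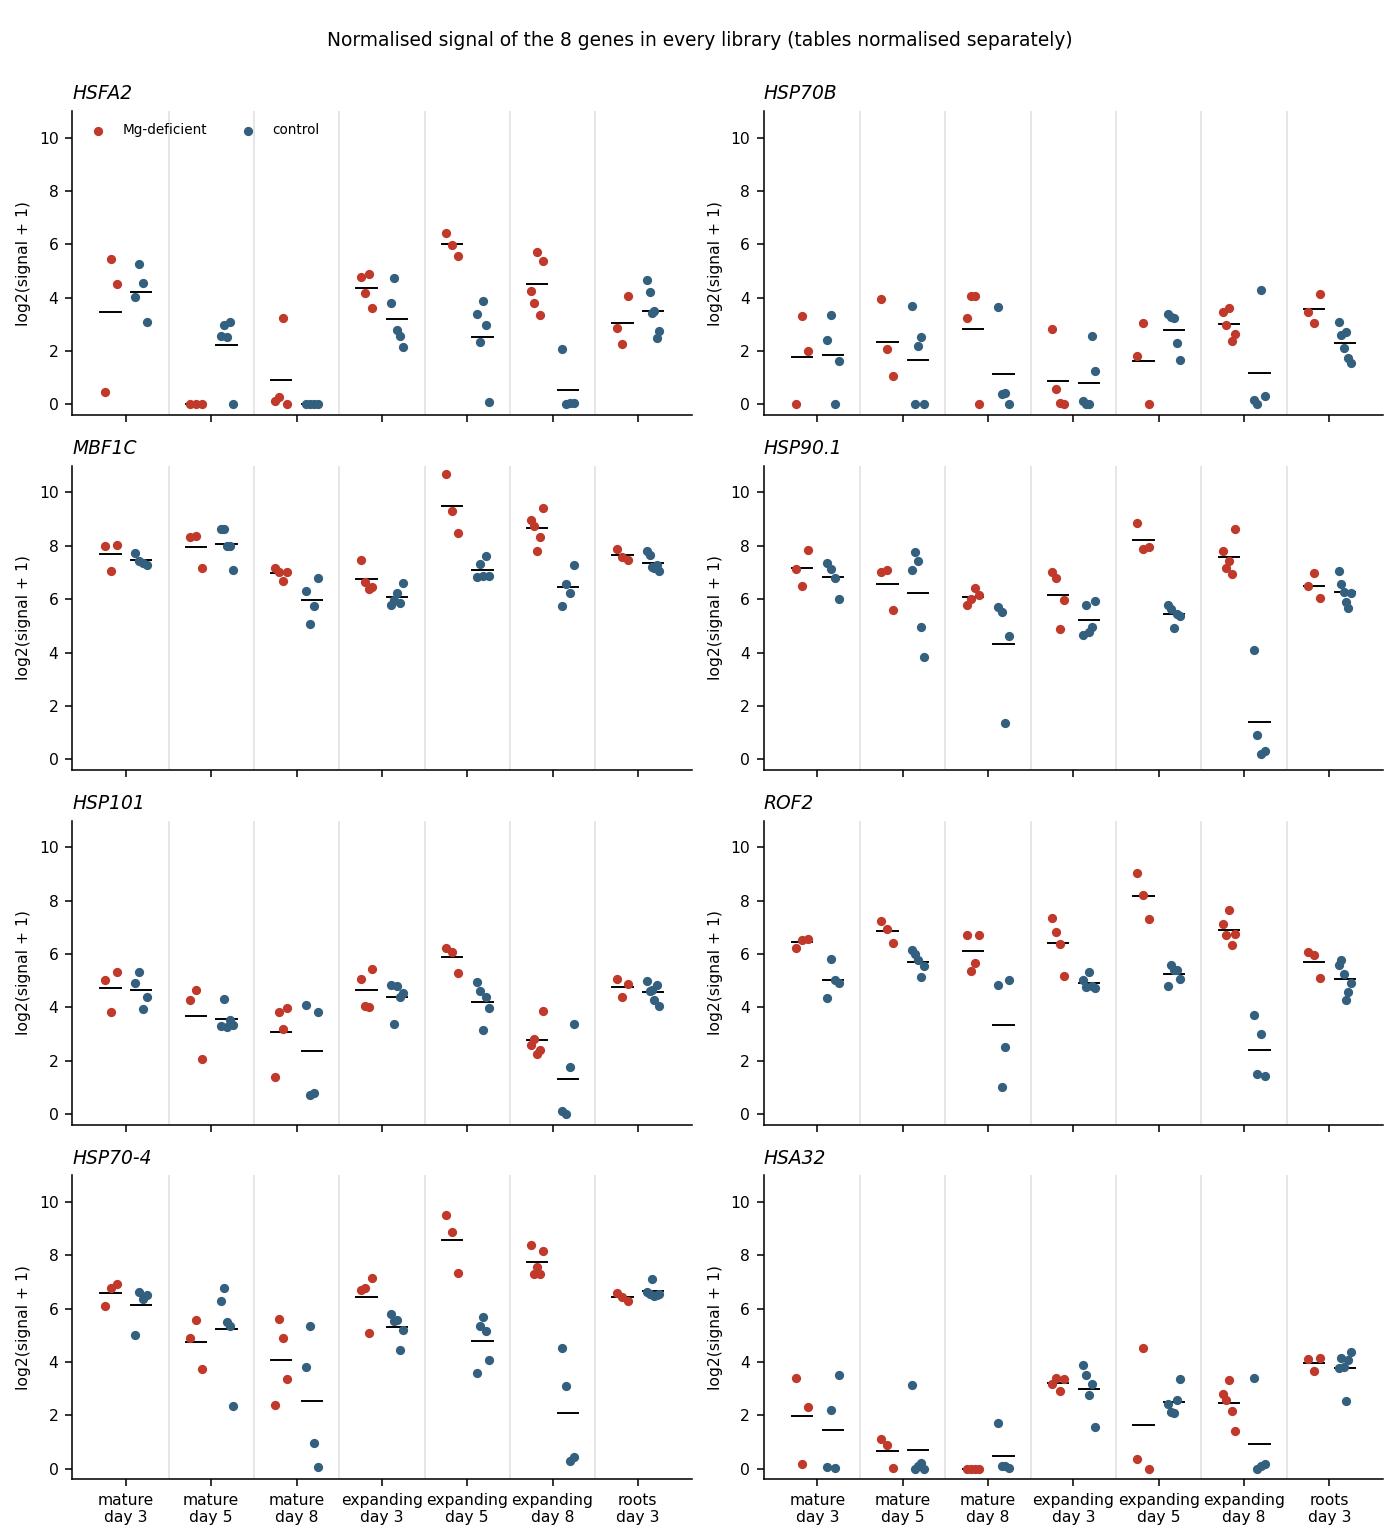
Normalised signal of each of the 8 genes in every library on the scale of log2(signal + 1), by tissue and day, with Mg-deficient libraries (red) left of control libraries (blue) and a bar at each group's mean. In expanding leaves on day 5 the Mg-deficient libraries of HSFA2, MBF1C, HSP101, HSP70-4, HSP90.1 and ROF2 sit above every control library, while those of HSP70B and HSA32 overlap with the controls.

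After 5 days without Mg, both regulators and most chaperones were more abundant in expanding leaves. Of the 8 genes, 6 had higher signal under Mg deficiency at an adjusted p under 0.05 and none was lower, against 13.7% higher and 14.8% lower among the 15570 genes tested. The same 6 had no overlap between the groups, against 16.1% of genes with Mg-deficient libraries above all controls. The median log2 fold change of the 8 genes was 2.59, against -0.34 over all genes. In bulk tissue, fewer cells of a type and less RNA per cell cannot be told apart, here and in all comparisons that follow.

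HSFA2 had signals of 85.1, 62.6 and 46.7 in Mg-deficient expanding leaves on day 5, against 9.62, 4.13, 13.8, 6.92 and 0.0554 in control leaves. The lowest Mg-deficient library was above the highest control. The log2 fold change was 3.46 ± 0.80 (SE, 11-fold, adjusted p = 0.0105). MBF1C had signals of 1634, 625 and 360.5 in Mg-deficient leaves, against 113, 160.4, 115, 195 and 116 in controls, where the 5 libraries lay close together. Its log2 fold change was 2.38 ± 0.42 (SE, 5.22-fold, adjusted p = 0.00267).

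Among the chaperones, HSP70-4 had signals of 720.3, 473 and 162 in Mg-deficient leaves, against 11, 39.7, 50.6, 34.6 and 15.8 in controls. The Mg-deficient libraries differed among themselves by more than the controls did, but all 3 were above every control, and the log2 fold change of 3.81 ± 0.58 (SE, 14-fold, adjusted p = 0.00116) was the highest of the 8 genes on this day. HSP90.1 had signals of 465, 232 and 248 in Mg-deficient leaves, against 53.7, 49.0, 29.6, 42.5 and 40.7 in controls. Its log2 fold change was 2.80 ± 0.31 (SE, 6.94-fold, adjusted p = 0.000193), with the smallest p of the 8. The disaggregase gene HSP101 moved less, with signals of 74.2, 66.7 and 37.9 in Mg-deficient leaves, against 29.9, 23.3, 7.88, 19.8 and 14.7 in controls and a log2 fold change of 1.66 ± 0.48 (SE, 3.15-fold, adjusted p = 0.0271).

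ROF2, the isomerase, had signals of 522, 292 and 157 in Mg-deficient leaves, against 27.1, 46.5, 41.7, 41.5 and 32.4 in controls. The controls spanned a narrow range and the log2 fold change was 2.92 ± 0.38 (SE, 7.58-fold, adjusted p = 0.000459). The second heat-inducible HSP70 gene, HSP70B, did not pass, with signals of 2.53, 7.31 and 0 in Mg-deficient leaves, against 9.61, 8.67, 8.42, 3.94 and 2.15 in controls (log2 fold change -1.15, 95% interval -2.89 to 0.59, adjusted p = 0.283). HSA32 did not pass either, and its Mg-deficient libraries were at 0.272, 21.9 and 0, against 4.33, 3.33, 3.20, 4.94 and 9.32 in controls (adjusted p = 0.510). These 2 genes were measured with few reads and their intervals are wide.

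Mg-deficient replicate 1, the library with fewer genes detected, held the highest signal of all 6 genes that passed. Without it all 6 still passed, as they did under the rescaling by median ratios, with log2 fold changes of 3.35 for HSP70-4, 3.24 for HSFA2, 2.49 for ROF2, 2.48 for HSP90.1, 1.79 for MBF1C and 1.47 for HSP101. HSP101 no longer passed without control replicate 4 (adjusted p = 0.0544), control replicate 5 (0.0603) or Mg-deficient replicate 2 (0.0621).

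On day 8 most of these genes were again higher in Mg-deficient expanding leaves, beside controls that held few reads of them. Of the 6 genes with enough signal to be tested, 5 were higher and none lower, against 30.8% higher and 14.9% lower among the 15523 genes tested. The same 5 had no overlap between groups, against 26.1% of genes. HSP90.1, HSP70B and HSFA2 had control means of 4.35, 4.77 and 0.825, under the mean signal of 5 needed for a test. They entered it through Mg-deficient libraries, so the filter set the direction of their means. Counts that hold these genes cannot be read against the shares over all genes. The median log2 fold change of the 6 genes was 4.23, against 0.63 over all genes, so that each of the 5 lay above the median gene by between 1.57 (MBF1C) and 5.57 (HSP90.1).

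HSP90.1 had signals of 222, 141, 169.8, 120.8 and 392.4 in Mg-deficient expanding leaves on day 8, against 16.1, 0.897, 0.137 and 0.234 in controls. These stand for 1156 reads in 5 Mg-deficient libraries and for 15, 1, 0 and 0 reads in the 4 controls. The log2 fold change was 6.21 ± 0.74 (SE, 73.8-fold, adjusted p = 3.06e-05). Because the controls were so low the fold depends on the value added before taking logarithms, and was 7.12 on the log2 scale with 0.25 added and 4.69 with 5 added. HSP70-4 had signals of 334, 156, 186, 155 and 285 in Mg-deficient leaves, against 21.7, 7.61, 0.211 and 0.364 in controls, or 1222 reads against 28. Both of its 2 lower controls had no read, and the log2 fold change was 5.65 ± 0.77 (SE, 50.3-fold, adjusted p = 8.34e-05).

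ROF2 had signals of 138, 105, 199.8, 79.6 and 106 in Mg-deficient leaves on day 8, against 12, 1.84, 6.92 and 1.66 in controls. The groups were far apart, with a log2 fold change of 4.51 ± 0.54 (SE, 22.8-fold, adjusted p = 2.94e-05). MBF1C had signals of 502, 423, 225, 318 and 687 in Mg-deficient leaves, against 51.9, 94.3, 73.6 and 153 in controls. It was the one regulator with many reads in controls (327 over the 4 libraries), and its log2 fold change was 2.21 ± 0.36 (SE, 4.61-fold, adjusted p = 0.000319). All 5 genes, HSFA2 included, still passed under the rescaling by median ratios.

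HSFA2 had signals of 18.0, 12.9, 51.9, 9.28 and 40.5 in Mg-deficient leaves on day 8, against 3.22, 0, 0.0297 and 0.0503 in controls. All 3 control reads came from control replicate 1. The log2 fold change was 3.95 ± 0.71 (SE, adjusted p = 0.000649) and depended on the value added, from 5.39 with 0.25 to 2.27 with 5. Relative to the total reads of each group, the ratio of 151 to 3 reads was 28.8, with an exact 95% interval of 9.65 to 141 that covers counting error alone.

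The other 3 genes were low on day 8. HSP70B had signals of 10.0, 6.97, 11.4, 4.25 and 5.25 in Mg-deficient leaves, against 0.109, 0, 18.7 and 0.248 in controls, where 1 library was above all Mg-deficient ones (log2 fold change 1.83, 95% interval -0.04 to 3.70, adjusted p = 0.101). HSP101 had signals of 5.00, 5.98, 3.73, 4.29 and 13.7 in Mg-deficient leaves, against 0.0696, 0, 2.37 and 9.47 in controls, and its mean of 4.96 over all libraries was below the minimum of 5 for a test. HSA32, with a mean of 3.89, was not tested, and its signals were 6, 4.98, 9.06, 3.43 and 1.65 in Mg-deficient leaves, against 9.65, 0, 0.0831 and 0.142 in controls. HSP101, which was higher on day 5, was thus not measured well enough on day 8 to be compared.

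**Figure D2:**
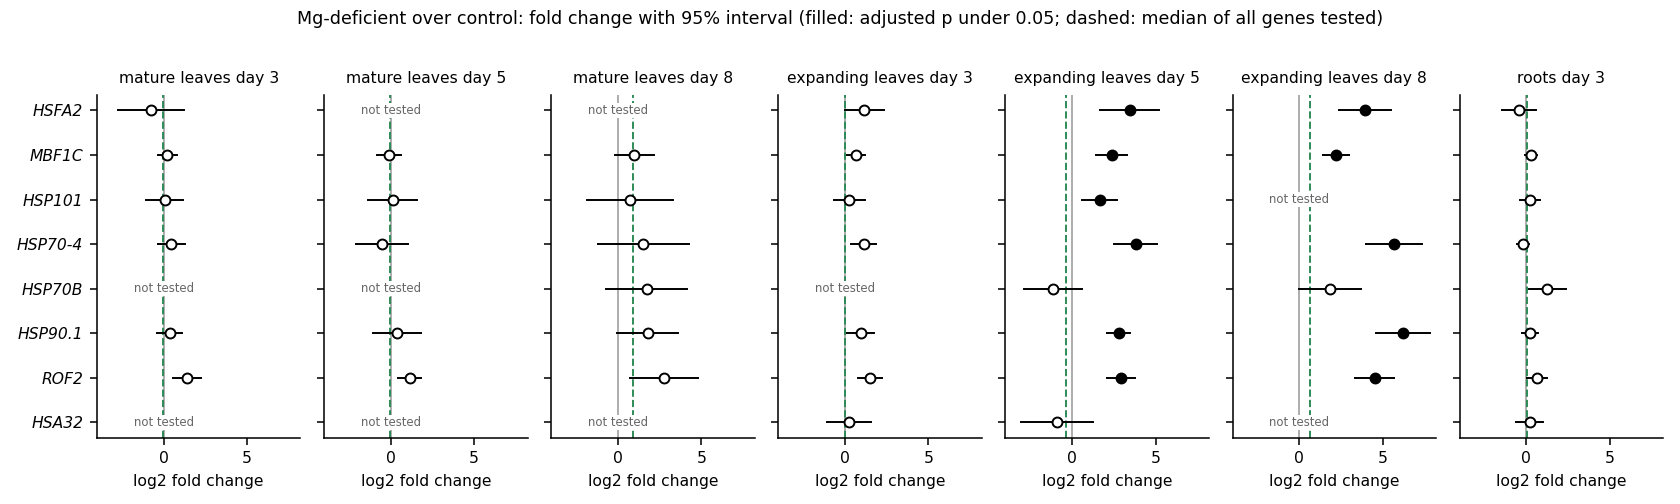
Log2 fold change (Mg-deficient over control, on the scale of log2 signal plus 1) of each of the 8 genes in the 7 tissue and day combinations, with 95% intervals, where filled points passed an adjusted p under 0.05 and the dashed line marks the median of all genes tested. The points that passed are all in expanding leaves, 6 on day 5 and 5 on day 8, with the highest for HSP90.1 on day 8 (6.21).

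On day 3 none of the 7 genes tested in expanding leaves passed with limma, against 0.17% of 15272 genes that were higher and 0.0589% that were lower, and none passed with limma voom on the recovered reads. At an unadjusted p under 0.05, 4 of the 7 were higher, against 4.53% of genes. All 7 log2 fold changes were positive, with a median of 0.94 against 0.03 over all genes, and in none of the 7 did the groups separate fully, against 1.80% of genes.

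ROF2 came nearest to the threshold on day 3. It had signals of 159.7, 111, 81.9 and 34.7 in Mg-deficient expanding leaves, against 31.6, 26.3, 39.3, 26.8 and 25.2 in controls, so that 3 of the 4 Mg-deficient libraries were above every control. The log2 fold change was 1.49 (95% interval 0.76 to 2.22, adjusted p = 0.0936). Without Mg-deficient replicate 4, the low library, it was 1.91 (adjusted p = 0.00519). With libraries weighted by their estimated quality, ROF2 (1.92, adjusted p = 0.000454), HSP70-4 (1.40, adjusted p = 0.00839) and HSP90.1 (1.29, adjusted p = 0.0289) passed.

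HSP70-4 had signals of 104, 108, 32.6 and 141 in Mg-deficient leaves on day 3, against 54.7, 45.2, 47.1, 20.8 and 36.1 in controls. Here it was replicate 3 that lay among the controls, and the log2 fold change was 1.11 (95% interval 0.36 to 1.86, adjusted p = 0.366). HSP90.1 had signals of 127, 109.7, 28.3 and 61.2 in Mg-deficient leaves, against 24.5, 53.8, 26.4, 29.8 and 59.3 in controls (log2 fold change 0.94, adjusted p = 0.529). MBF1C had signals of 177, 98.3, 83.1 and 86.7 in Mg-deficient leaves, against 53.4, 62.1, 73.6, 57.6 and 96.6 in controls (log2 fold change 0.65, adjusted p = 0.5257). For all 3 genes at least 1 Mg-deficient library fell within the range of the controls. HSFA2 was at 26.1, 17.2, 28.9 and 11.3 in Mg-deficient leaves, against 13.0, 25.7, 5.86, 4.95 and 3.44 in controls (adjusted p = 0.639). HSP101 and HSA32 had log2 fold changes of 0.26 and 0.23, within intervals of -0.64 to 1.17 and -1.08 to 1.54, and HSP70B was too low to be tested.

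In mature leaves no gene of the 8 passed on any day. On day 3, 6 genes were tested and 1 had an unadjusted p under 0.05, against 1.25% of the 15079 genes tested that were higher at that threshold and 0% that passed the adjustment. On day 5 it was 1 of 5, against 2.52% and 0% of 15243 genes, and on day 8 it was 1 of 6, against 18.3% and 3.43% of 13314 genes (0.173% passed as lower). Limma voom on the recovered reads called none of them on any of the 3 days. On each day the 1 gene was ROF2.

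ROF2 had signals of 72.8, 90.8 and 94.0 in Mg-deficient mature leaves on day 3, against 19.6, 55.2, 31.8 and 29.3 in controls. On day 5 its signals were 149, 120.7 and 83.6 in Mg-deficient leaves, against 69.4, 62.6, 53.0, 33.9 and 45.6 in controls. On day 8 they were 103, 39.6, 49.5 and 102 in Mg-deficient leaves, against 27.7, 1.02, 4.69 and 31.8 in controls. These day 8 signals stand for 386 reads in Mg-deficient and 72 in control libraries, with no read in 1 control. Few genes were detected in most controls of that day, and the part of this in the separation was not tested. On all 3 days every Mg-deficient library was above every control library, a separation seen for 2.18% of genes on day 3, 2.24% on day 5 and 9.56% on day 8. The log2 fold changes were 1.40 (95% interval 0.58 to 2.22) on day 3, 1.14 (0.45 to 1.83) on day 5 and 2.75 (0.72 to 4.78) on day 8, with adjusted p of 0.9799, 0.5256 and 0.116.

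The other genes overlapped between groups in mature leaves on days 3 and 5. MBF1C was abundant there, with signals of 251, 131 and 260.3 in Mg-deficient leaves on day 3, against 213, 172, 163 and 157 in controls (log2 fold change 0.22, 95% interval -0.36 to 0.80). On day 5 it had 325, 330.2 and 141 in Mg-deficient leaves, against 395, 393, 255, 257 and 135 in controls (log2 fold change -0.11, 95% interval -0.84 to 0.61). On these days the intervals of MBF1C stayed within 2-fold in either direction. HSP90.1 had signals of 128, 137 and 47.6 in Mg-deficient leaves on day 5, against 137, 216, 170.1, 30.4 and 13.3 in controls (log2 fold change 0.35, 95% interval -1.09 to 1.80), and HSP70-4 had 29.0, 47.0 and 12.5, against 76.3, 108, 44.8, 40.2 and 4.10 (log2 fold change -0.51, 95% interval -2.07 to 1.05). Both were spread widely over the 5 controls.

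HSFA2 had few reads in mature leaves on days 5 and 8. On day 3 its signal was 0.383, 42.9 and 21.8 in the 3 Mg-deficient libraries, against 15.2, 37.3, 22.5 and 7.42 in the 4 controls, so that the groups overlapped (log2 fold change -0.75, 95% interval -2.72 to 1.22, adjusted p = 0.9799). Without Mg-deficient replicate 1 the log2 fold change was 0.76. On day 5 HSFA2 had no read in the 3 Mg-deficient libraries and 5, 7, 4, 5 and 0 reads in the 5 controls, so that the groups overlapped. Set against a floor of 3 reads over the group, the bound for HSFA2 was 3.82-fold lower in Mg-deficient leaves. On day 8 HSFA2 had 0, 0, 12 and 0 reads in Mg-deficient leaves and none in the 4 controls. The bound by the same floor was 2.68-fold higher, from 1 library. Neither fold is a test. Both take the reads of the other group as exact and leave out the spread between libraries. HSFA2 was below the minimum for a test on days 5 and 8.

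On day 8 in mature leaves HSP90.1 also separated fully, with 53.5, 64.0, 85.2 and 70.1 in Mg-deficient leaves, against 51.5, 44.4, 1.58 and 23.7 in controls (log2 fold change 1.79, 95% interval -0.04 to 3.62, adjusted p = 0.265). The median log2 fold change of the 6 genes tested was 1.62, against 0.91 over all genes. Control replicate 1 was the control library with the most genes detected, and with it as the only control, a choice made after seeing the data, HSP101 was at -1.0 and HSP70B at -0.80 on the log2 scale, in place of 0.73 and 1.72. Under the rescaling by median ratios MBF1C (0.99) was at -0.79 and HSP101 at -0.49. The direction of these 3 uncalled values therefore depends on the controls and on the scaling.

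In roots on day 3 none of the 8 genes passed with limma or with limma voom, against 0.0887% of 16905 genes that were higher and 0.112% that were lower. At an unadjusted p under 0.05, 2 were higher, against 4.81% of genes. In none of the 8 did the groups separate, against 2.53% of genes. HSP70B was low in roots as in leaves, with 36 reads over the Mg-deficient and 25 over the control libraries. With a control mean of 4.28, under the 5 needed for a test, HSP70B entered through Mg-deficient libraries. It had signals of 10.0, 7.41 and 16.7 in Mg-deficient roots, against a lowest of 1.92, a median of 4.18 and a highest of 7.43 in 6 controls (log2 fold change 1.26, 95% interval 0.16 to 2.37, adjusted p = 0.378). One Mg-deficient library fell just inside the control range. ROF2 had signals of 65.4, 60.4 and 33.4 in Mg-deficient roots, against a lowest of 18.5, a median of 33.0 and a highest of 53.1 in controls (log2 fold change 0.64, 95% interval 0.03 to 1.25, adjusted p = 0.424).

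None of the remaining genes had an unadjusted p under 0.05 in roots. HSP70-4 had signals of 94.2, 84.9 and 77.6 in Mg-deficient roots, against a lowest of 88.4, a median of 93.2 and a highest of 137 in controls (log2 fold change -0.21, 95% interval -0.58 to 0.16). MBF1C had 233, 191 and 178 in Mg-deficient roots, against a lowest of 131, a median of 152 and a highest of 223 in controls (95% interval -0.07 to 0.63). For HSP90.1, HSP101, HSFA2 and HSA32 the log2 fold changes were 0.23, 0.22, -0.44 and 0.19, with intervals that all held 0.

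**Figure D3:**
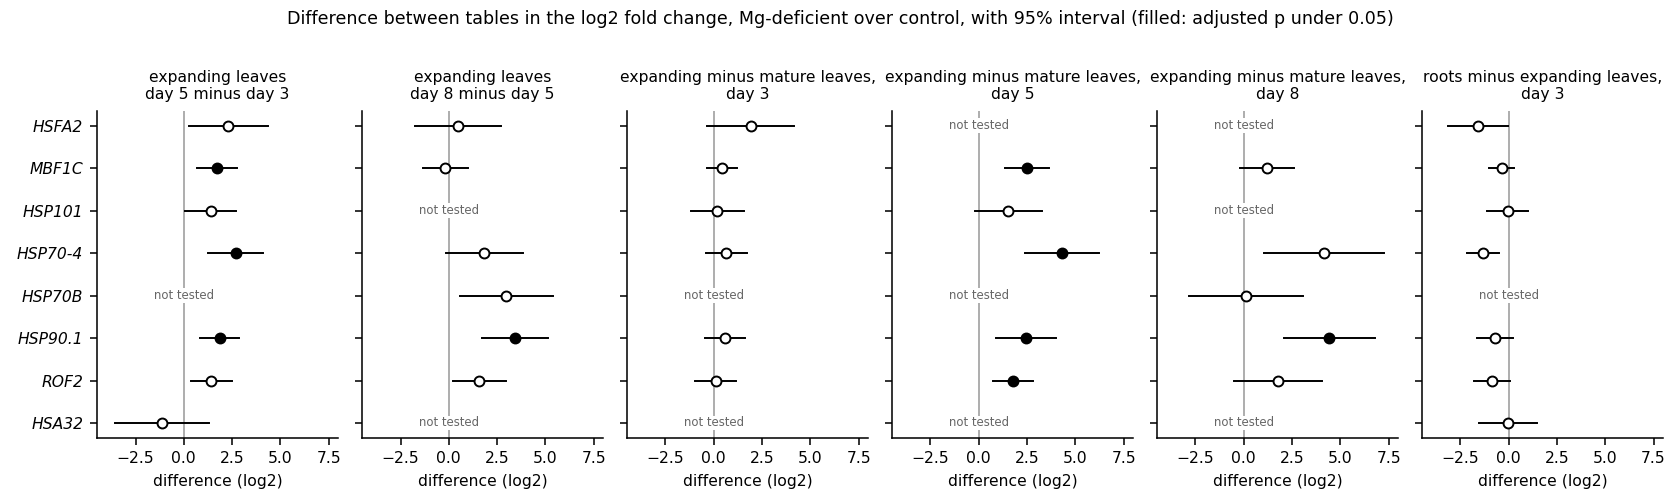
Difference between log2 fold changes of pairs of tissues or days for each gene tested in both, with 95% intervals, in log2 units; filled points passed an adjusted p under 0.05. The 9 differences that passed are all positive and involve expanding leaves on days 5 or 8, up to 4.42 for HSP90.1 in expanding over mature leaves on day 8.

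Whether a response differed between days or tissues was tested on the difference of the log2 fold changes, for 46 gene and pair combinations, of which 9 passed. The pairs share tables and are not independent of each other. Libraries of different tissues taken on one day may share plants, and the test takes them as independent. Between days 5 and 3 of expanding leaves, 3 of 7 genes differed, all higher on day 5, against 7.41% of 14568 genes higher and 10.5% lower. The log2 fold change of HSP70-4 was higher on day 5 by 2.70 (95% interval 1.27 to 4.12, adjusted p = 0.0109), that of HSP90.1 by 1.86 (0.85 to 2.86, adjusted p = 0.00981) and that of MBF1C by 1.74 (0.70 to 2.77, adjusted p = 0.0214). ROF2, the gene nearest to the threshold on day 3, was higher by 1.43 (0.37 to 2.49, adjusted p = 0.0530), HSFA2 by 2.30 (0.25 to 4.34, adjusted p = 0.104) and HSP101 by 1.39 (0.06 to 2.73, adjusted p = 0.129). MBF1C did not pass without control replicate 1 of day 5 (adjusted p = 0.0508), and with libraries weighted by quality HSP70-4 alone passed.

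Between days 8 and 5 of expanding leaves HSP90.1 differed, 1 of 6 genes, against 13.2% of 14584 genes with a higher and 3.53% with a lower response on day 8. Its log2 fold change was higher on day 8 by 3.41 (95% interval 1.70 to 5.12, adjusted p = 0.0105). HSP90.1 entered the day 8 test through Mg-deficient libraries, so this count cannot be read against the shares over all genes. In RPM (reads of a gene scaled to a common library total), a description across separately normalised tables, HSP90.1 had a median of 83.2 in Mg-deficient leaves on day 8 and 115 on day 5, against 0.253 in controls on day 8 and 19.9 on day 5. The larger fold on day 8 thus went with a control level that was lower on day 8, and with fewer genes detected in those controls, whose part in the result was not tested. For MBF1C the difference between the days was -0.18 (95% interval -1.33 to 0.97) and for HSFA2 0.50 (-1.73 to 2.73). For HSP70-4 it was 1.84 (-0.16 to 3.84). The number that passed was 3 without control replicate 1 of day 8, and 2 without either Mg-deficient replicate 1 or replicate 2 of day 5.

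On day 5 the response of expanding leaves was higher than that of mature leaves for 4 of the 5 genes tested in both, against 9.96% of 14522 genes higher and 10.8% lower. The difference of log2 fold changes was 4.32 for HSP70-4 (95% interval 2.39 to 6.24, adjusted p = 0.0020), 2.50 for MBF1C (1.37 to 3.62, adjusted p = 0.00265), 2.44 for HSP90.1 (0.88 to 4.0, adjusted p = 0.0251) and 1.78 for ROF2 (0.75 to 2.81, adjusted p = 0.0143). For HSP101 it was 1.54 (-0.21 to 3.28, adjusted p = 0.193). The call for HSP90.1 was lost without Mg-deficient replicate 3 (adjusted p = 0.105), control replicate 2 (0.0557) or control replicate 3 (0.0528) of mature leaves.

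On day 8 the response of HSP90.1 was higher in expanding than in mature leaves by 4.42 (95% interval 2.06 to 6.77, adjusted p = 0.0160), 1 of 5 genes, against 1.66% of 12956 genes higher and 4.29% lower. HSP90.1 entered the test of expanding leaves through Mg-deficient libraries, so this count cannot be read against these shares. HSP70-4 differed by 4.14 (1.03 to 7.25, adjusted p = 0.105), ROF2 by 1.76 (-0.52 to 4.04) and MBF1C by 1.21 (-0.17 to 2.60). Depth was lowest in mature leaves on day 8, where the intervals of the genes tested were widest. HSP90.1 did not pass without Mg-deficient replicate 1 of mature leaves (adjusted p = 0.0513), and 2 genes passed without control replicate 1 of expanding leaves or control replicate 4 of mature leaves. The difference passed for no gene between mature leaves on days 5 and 3 (0 of 5, against 0% of 14453 genes), between mature leaves on days 8 and 5 (0 of 5, against 2.08% of 12915 higher and 0.0542% lower) or between expanding and mature leaves on day 3 (0 of 6, against 0% of 14238). Between roots and expanding leaves on day 3 it passed for 0 of 7 genes, against 0% of 13698 genes higher and 0.0073% lower in roots, and the smallest p was that of HSP70-4 (-1.32, 95% interval -2.15 to -0.50, adjusted p = 0.622). At an unadjusted p under 0.05 these 4 pairs gave 2 genes, HSP70-4 and HSFA2, both with lower fold changes in roots than in expanding leaves. Over all genes tested, an unadjusted p under 0.05 was reached by 1.96% with higher and 3.34% with lower fold changes in roots than in expanding leaves on day 3. These shares were 2.62% higher and 3.11% lower in mature leaves on day 5 relative to day 3, 16.9% and 1.16% on day 8 relative to day 5, and 3.54% and 1.36% in expanding relative to mature leaves on day 3. Of the 8 genes, limma voom called none in these pairs.

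Levels were also set side by side over all 14 groups as RPM of each library, with no test because the tables were normalised separately. Mg-deficient expanding leaves on day 5 had the highest median of the 14 groups for 6 of the 8 genes. Their medians were 28.0 for HSFA2, 279 for MBF1C, 29.9 for HSP101, 211 for HSP70-4, 115 for HSP90.1 and 130.4 for ROF2. For each of these 6 genes the range of the libraries overlapped with that of at least 1 other group. HSP70-4, for example, ran from 74.9 to 410, against 77.5 to 158 in Mg-deficient expanding leaves on day 8. Control expanding leaves on day 8 had the lowest for HSP101 (0.729), HSP70-4 (2.03), HSP90.1 (0.253) and ROF2 (2.69). MBF1C was lowest in control expanding leaves on day 3 (31.9, range 26.6 to 48.6) and had 48.0 (27.3 to 87.1) in those of day 8, so these neighbours overlap.

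HSP70B and HSA32 were ordered in another way. HSP70B was highest in Mg-deficient mature leaves on day 8 (median 10.06 RPM), where its 4 libraries ran from 0 to 15.66 and thus overlapped with every other group. HSA32 was highest in roots, with 7.81 (6.10 to 8.05) in Mg-deficient and 6.79 (2.13 to 9.37) in control roots, and had no read at all in the 4 Mg-deficient mature leaf libraries of day 8, where the controls had 3, 0, 0 and 0. MBF1C in mature leaves had medians of 133, 161 and 118 in Mg-deficient leaves on days 3, 5 and 8, against 87.7, 134 and 64.0 in controls, while control expanding leaves had 31.9, 54.7 and 48.0 on those days. The controls of the 2 tissues lay apart on day 3 (79.9 to 113 in mature and 26.6 to 48.6 in expanding leaves), and their ranges overlapped on days 5 and 8. Means in mature leaves on day 5 were ordered the other way, with 134 in Mg-deficient and 143 in control leaves.

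**Figure D4:**
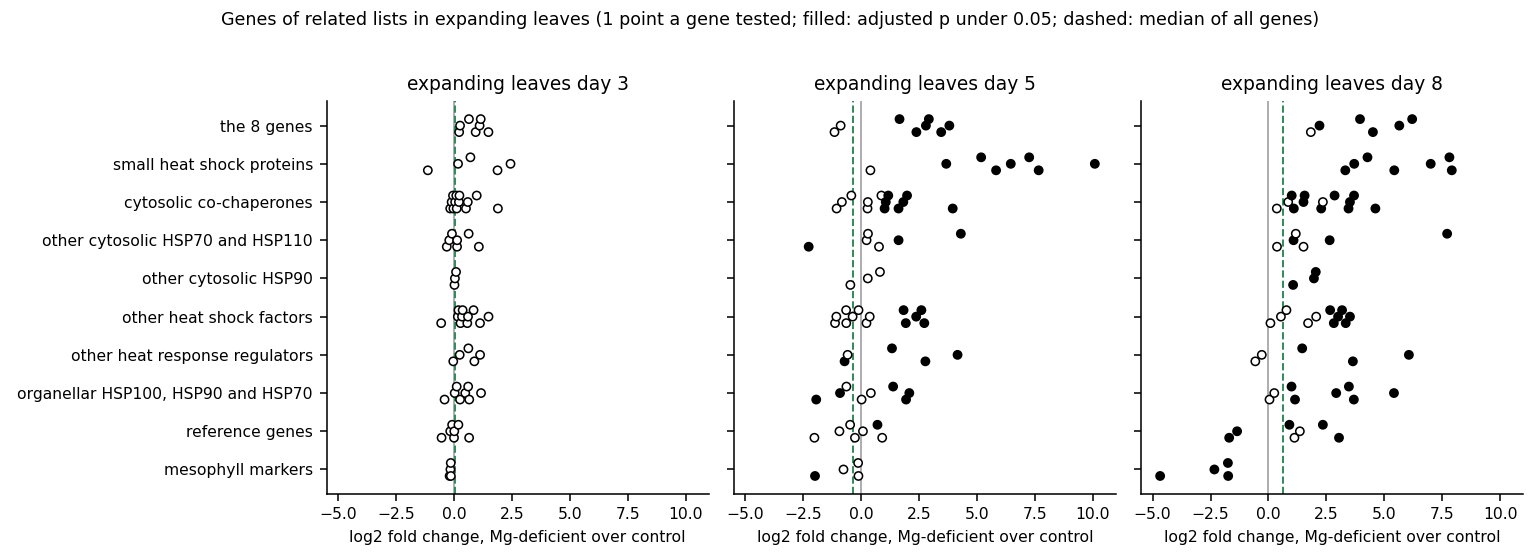
Log2 fold change (Mg-deficient over control) of single genes in lists related to the 8 genes, in expanding leaves at each of the 3 days, with 1 point for each gene tested; filled points passed an adjusted p under 0.05 and the dashed line marks the median of all genes tested. Small heat shock protein genes lie highest, with 7 of 8 tested genes higher on day 5 and 7 of 7 on day 8. Of the latter, 5 had no control read and entered the test through Mg-deficient libraries alone. On day 5 HSP23.6, HSP17.4-CI and HSP17.7-CII, with control means under the minimum for a test, also entered through Mg-deficient libraries.

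Genes that act with these 8 were followed through lists chosen by function, and in expanding leaves the lists differed in how many of their genes passed. The counts of each list stand against shares over all genes tested of 13.7% higher and 14.8% lower on day 5, and of 30.8% higher and 14.9% lower on day 8. Genes with a control mean under the minimum for a test entered through Mg-deficient libraries. Counts that hold such genes cannot be read against these shares. Among the other cytosolic HSP70 and HSP110 genes, 2 of 6 tested were higher and 1 lower on day 5 (median log2 fold change 0.53, against -0.34 over all genes), and 3 of 6 were higher on day 8 (1.35, against 0.63). HSC70-2, a neighbour and close relative of HSC70-1 with which it may share reads, had a mean signal of 454 ± 76.5 in Mg-deficient and 23.8 ± 10.5 in control leaves on day 5 (SD, n = 3 and 5), a log2 fold change of 4.30 (adjusted p = 4.70e-05). HSC70-3 was higher by 1.61 on the log2 scale on that day and HSP70T-2 fell by 2.27. On day 8 HSC70-2 had 1105 ± 312 in Mg-deficient and 10.3 ± 13.5 in control leaves (SD, n = 5 and 4, log2 fold change 7.72), and HSC70-3 and HSC70-1 had log2 fold changes of 2.64 and 1.09. None of the 3 other cytosolic HSP90 genes, HSP90.2, HSP90.3 and HSP90.4, passed on day 5, and all 3 were higher on day 8 by 1.97, 1.07 and 2.04 on the log2 scale, against 6.21 for HSP90.1. These 3 genes lie side by side and have similar sequences, so that short reads may be divided between them.

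Co-chaperones, which hand clients to HSP70 and HSP90 or reset their cycle, were higher for 7 of 13 tested on day 5 (median log2 fold change 1.01) and for 10 of 13 on day 8 (2.28), and none was lower, where 13.7% and 30.8% of all genes tested were higher on these days and 14.8% and 14.9% lower. On day 5 the 4 with the smallest p were FES1A, an HSP70 partner needed for heat tolerance (3.95), the ubiquitin ligase CHIP (1.98), SGT1A (1.61) and SGT1B (1.17). On day 8 they were P23-1 (1.56), the J-domain protein J2 (4.62), FES1A (3.46) and HOP1 (3.70), which links HSP70 to HSP90. Of the other heat shock factors, 5 of 13 tested were higher on day 5 (median 0.23) and 6 of 11 on day 8 (2.67), and none was lower, beside the same shares over all genes. HSFB1, HSFA4A, HSFA8 and HSFB2A were named on both days, with log2 fold changes of 2.73, 2.60, 1.83 and 2.38 on day 5 and of 3.52, 3.18, 2.67 and 3.34 on day 8. HSFB2A had a control mean of 4.22 on day 8, under the minimum for a test, and entered through Mg-deficient libraries.

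Among other regulators of the heat response, 3 of 5 were higher and 1 lower on day 5 (median 1.33), and 3 of 5 were higher on day 8 (1.46), with 13.7% of all genes higher and 14.8% lower on day 5, and 30.8% higher on day 8. The transcription factor DREB2C had a mean signal of 83.9 ± 21.3 in Mg-deficient and 4.47 ± 3.69 in control leaves on day 5 (SD, n = 3 and 5), a log2 fold change of 4.16 (adjusted p = 0.000865), and DREB2A, which acts above several heat shock factors in drought and heat, had one of 2.77. MBF1A, a relative of MBF1C, was higher by 1.33 on the log2 scale on day 5, while MBF1B fell by 0.72. On day 8 DREB2C, DREB2A and MBF1A were higher by 6.07, 3.65 and 1.46. DREB2C had control means of 4.47 on day 5 and 0.278 on day 8, and DREB2A had one of 2.25 on day 8. These were under the minimum for a test, so both genes entered through Mg-deficient libraries on those days. The counts that hold them cannot be read against the shares over all genes.

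Small heat shock proteins, which hold unfolded proteins without using ATP, were the list with the largest changes. On day 5, 7 of 8 tested were higher (median log2 fold change 6.14), and on day 8, 7 of 7 (5.43 as fitted, and 5.94 with the 5 genes without a control read set against a floor of 3 reads over the group), while 13.7% of all genes tested were higher on day 5 and 30.8% on day 8. The list held 12 genes, and the rest had too little signal to be tested. The 5 genes without a control read on day 8, and HSP23.6 on day 5, entered the test through the Mg-deficient libraries alone. On day 5 HSP17.4-CI and HSP17.7-CII had control means of 0.956 and 1.57, under the mean signal of 5 needed for a test. They too entered through Mg-deficient libraries. The direction of all these genes was set by the filter, so that the counts cannot be read against the shares over all genes. The summed signal of the list was 1072 to 3792 in Mg-deficient and 9.55 to 42.4 in control leaves on day 5. On day 8 it was 480.0 to 1338 in Mg-deficient and 2.37 to 17.71 in control leaves. HSP23.6, a mitochondrial member, had a mean signal of 1292 ± 757 in Mg-deficient leaves on day 5 (SD, n = 3) and no read in the 5 controls. Of the chaperones in organelles, 3 of 8 were higher and 2 lower on day 5 (median 0.22), and 6 of 8 were higher on day 8 (2.04), against 14.8% of all genes lower on day 5 and the shares higher just given. Those that rose on day 5 included mitochondrial mtHSC70-1 (2.08) and CLPB4 (1.94), and the 2 that fell were the chloroplast genes cpHSC70-1 and cpHSC70-2, by 1.94 and 0.91 on the log2 scale. CLPB4 had a control mean of 2.25 on day 8, under the minimum for a test, and entered through Mg-deficient libraries on that day.

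Outside expanding leaves on days 5 and 8, members of these lists passed in mature leaves on day 8 alone. These were HSC70-2 (log2 fold change 4.91, adjusted p = 0.0116), HSFB1 (3.37, adjusted p = 0.0359), and HSP23.6 and CLPB4, which had mean signals of 19.3 ± 11.5 and 14.7 ± 5.42 in Mg-deficient leaves (SD, n = 4) and no read in controls. These last 2 genes entered the test through Mg-deficient libraries alone, and control replicates 2, 3 and 4 held reads of 7907, 6908 and 9697 genes. Among reference and marker genes of that table UBQ10 was higher by 0.88 on the log2 scale and RBCS1A fell by 0.52. With the 8 genes included, 5 of 76 genes tested in lists were higher and 1 lower, against 3.43% and 0.173% of all genes. Of all calls there 95.2% were higher, and 15.9% under the rescaling by median ratios. With the 8 genes included, none of the 84, 78, 83 and 81 genes tested in lists in mature leaves on days 3 and 5, expanding leaves on day 3 and roots passed, marker and reference genes included.

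Genes that mark cell types or serve as references also moved in expanding leaves. Of 4 mesophyll markers, 1 was lower on day 5 (CA1, by 1.99 on the log2 scale) and all 4 on day 8, when their summed signal was 13283 to 22937 in Mg-deficient and 59703 to 73813 in control leaves. Vascular markers were lower for 1 of 8 on day 5 (SWEET12) and 3 of 7 on day 8 (SWEET12, SUC2 and SWEET11). They did not all move the same way on day 8, when log2 fold changes of this list ran from -3.38 to 2.13. At an unadjusted p under 0.05 (limma), 1 vascular marker was higher on that day and 3 were lower. No guard cell marker passed on either day. For comparison, 14.8% of all genes tested fell on day 5 and 14.9% on day 8, while 13.7% and 30.8% rose. Of 7 reference genes, UBQ10 was higher by 0.70 on the log2 scale on day 5. On day 8 UBQ10 was higher by 3.05 and YLS8 by 0.91, SAND, named after its value was seen, by 2.35, and ACT2 and UBC9 fell by 1.69 and 1.35. The part of these shifts in the results for the 8 genes was not tested.

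Among themselves the 8 genes did not vary as one. After each group's mean was removed, the log2 signals of HSP90.1 and HSP70-4 correlated most over the 58 libraries (Pearson r = 0.63), followed by MBF1C and HSP101 (0.59), and HSP70-4 and HSP101 least (-0.07). These values describe libraries that share depth and tissue and carry no test. The genes outside the 8 whose values followed them most closely were found by the correlation over the 58 libraries with the mean of HSP70-4, HSP90.1, ROF2 and MBF1C, the 4 genes tested in all 7 tables, among 5557 genes and with control means set to 0 in each table. They were GSTF8, a phi-class glutathione S-transferase (r = 0.93), the sulfotransferase gene SOT12 (0.91), AT1G67360 (0.91), FLOT1 (0.91) and RHF2A (0.90). Differences between treatments remained in these values, so this r also reflects a shared change under Mg deficiency. It cannot be set beside the correlations among the 8 genes, from which each group's mean was removed. Their log2 fold changes in expanding leaves were 1.26 on day 5 and 2.57 on day 8 for GSTF8, 5.98 and 7.36 for SOT12, 2.64 and 5.14 for AT1G67360, 4.33 and 5.63 for FLOT1, and 0.87 and 1.84 for RHF2A.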

How the data were processed

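The authors sequenced strand-specific libraries as 50 bp single-end reads, mapped them to TAIR10, counted reads per gene and normalised the counts; per the submitters' notes R 3.5.0 and edgeR were used. The deposited signal comes in 7 tables, one per tissue and day, with 58 libraries in all. A value is the read count after adjustment to one library size shared by its table, and signals were compared within tables alone. Libraries were grouped by their labels alone. Undoing the adjustment with a dispersion of 0.05 returned whole reads in 98.6 to 100.0% of cases per library, within a tolerance of 0.001.

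Linear models of log2(signal + 1) were fitted table by table with limma 3.58.1 (R 4.3.3), using lmFit and the trend option of eBayes and no covariate. Genes needed a mean signal of 5 or more. Tests were two-sided and p-values were adjusted by the Benjamini-Hochberg method over all genes tested in a table. Every adjusted p comes from limma. Fold changes on this scale understate those of low genes. Differences between tables were tested as the difference of 2 log2 fold changes divided by its SE, obtained from both SEs, with Satterthwaite degrees of freedom, adjusted over all genes tested in both. The scripts were tested on simulated data. Alternatives were pseudocounts of 0.25 and 5, no filter and a filter at 20, 2 other scalings, array weights, a replicate block, a joint fit and leaving out each library. Limma voom on the recovered reads, and control replicate 1 alone in mature leaves on day 8, were added after seeing the data. Python 3.11.15, numpy 2.4.6, pandas 2.3.3, scipy 1.17.1 and matplotlib 3.10.9 were used. The element search used TAIR10.1 (RefSeq).

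The 8 genes and the 12 lists were chosen with earlier results of these data known. Named in the text are all 8 genes, up to 4 genes of each list and table that passed, ranked by p, and the 5 genes most alike, which needed a mean signal of 20 or more in every table. SAND was named after its value was seen.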

Additional observations from a re-analysis of the deposited data

Results flagged for a closer look

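Single libraries stood apart in 7 of the 65 groups of 4 to 10 libraries examined, by the gap to the nearest library relative to the range of the group, where chance gives about 1 in 20. The gap was taken on log2(signal + 1). All were controls, but groups of 3 libraries were not examined. This left out the Mg-deficient groups of mature leaves on days 3 and 5, expanding leaves on day 5 and roots. HSP70-4 had a signal of 31.5 in control replicate 1 of mature leaves on day 3, against 82.0 to 98.1 in the other controls, and 137 in control replicate 3 of roots, against 88.4 to 97.8. HSP101 had 18.9 in control replicate 2 of mature leaves on day 5, against 8.60 to 10.4. HSP70B had 11.5 in control replicate 1 of mature leaves on day 8, against 0.0218 to 0.354, and 18.7 in control replicate 3 of expanding leaves on day 8, against 0 to 0.248. HSFA2 had 3.22 in control replicate 1 of expanding leaves on day 8, against 0 to 0.0503, a gap that rests on 3 reads. HSA32 had 4.82 in control replicate 4 of roots, against 12.8 to 19.5.

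Responses to Mg deficiency differed between tables in 9 of 46 tests. Between days 5 and 3 of expanding leaves the difference in log2 fold change was 2.70 for HSP70-4, 1.86 for HSP90.1 and 1.74 for MBF1C, and between days 8 and 5 it was 3.41 for HSP90.1. Between expanding and mature leaves on day 5 it was 4.32 for HSP70-4, 2.44 for HSP90.1, 1.78 for ROF2 and 2.50 for MBF1C, and on day 8 it was 4.42 for HSP90.1.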

How the results depend on the processing

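The counts of 6 genes on day 5 and 5 on day 8 in expanding leaves stayed within 1.5 times under every alternative fitted, with 4 of 4 tested at a filter of 20 on day 8 and 5 to 6 on day 5 with single libraries left out. The count on day 3 of expanding leaves, 0, was 1 with a pseudocount of 5, 3 with array weights and 0 to 1 with single libraries left out. The number of genes that differed between days 5 and 3 of expanding leaves, 3, was 5 with a pseudocount of 5, 1 with array weights and 0 with the replicate block (adjusted p = 0.0888 for HSP70-4, 0.101 for HSP90.1 and 0.1005 for MBF1C). Between days 8 and 5 it was 1, and 1 to 3 with single libraries left out. Between expanding and mature leaves on day 8 it was 1, and 2 with a pseudocount of 5 or with median of ratios scaling, 0 with limma voom, 3 with control replicate 1 alone and 0 to 2 with single libraries left out. Between roots and expanding leaves it was 0, and 1 with array weights.

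Replicate numbers did not pair the samples, since correlations of the deviations of same-numbered libraries ranged from -0.10 to 0.17 over 24 pairs and in 0 tables were all above 0.1. With the replicate block 4 of the 8 genes passed in expanding leaves on day 5, and 663 of all genes were higher in place of 2132. HSFA2 was then at 2.78 (adjusted p = 0.0959) and HSP101 at 1.63 (adjusted p = 0.161). The difference for ROF2 between expanding and mature leaves on day 5 was 2.02 with the block (adjusted p = 0.0713). In a joint fit of both tables that of HSP90.1 was 2.44 (adjusted p = 0.0716), and on day 8 it was 4.59 with limma voom (adjusted p = 0.0550).

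Values that changed sign had not passed the threshold. With the replicate block these were HSP101 in mature leaves on day 3 (-0.0088), HSP90.1 in mature leaves on day 5 (-0.85) and in roots (-0.12), and HSA32 in expanding leaves on day 3 (-0.13). With array weights they were HSP90.1 in mature leaves on day 5 (-0.17) and HSA32 in expanding leaves on day 5 (0.31). In mature leaves on day 8 they were HSP101 (-0.49) and MBF1C (-0.79) with median of ratios scaling, and HSP101 (-1.0) and HSP70B (-0.80) with control replicate 1 alone. With single libraries left out the ranges that crossed 0 were, in mature leaves on day 3, -0.22 to 0.53 for HSP101 and -1.74 to 0.76 for HSFA2. In mature leaves on day 5 they were -0.37 to 0.92 for HSP101, -0.24 to 0.84 for HSP90.1 and -0.36 to 0.29 for MBF1C. They were -0.13 to 0.46 for HSA32 in expanding leaves on day 3, and in roots -0.0022 to 0.45 for HSP90.1 and -0.059 to 0.34 for HSA32. The cause of these changes was not tested. The count tests of edgeR (quasi-likelihood) and DESeq2 were planned and not run, because the deposited values are adjusted and not counts. HSA32, HSP70B, HSFA2 and HSP101 could be tested in 3, 4, 5 and 6 of the 7 tables, and a low level and low depth cannot be told apart there.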
